A study of Mus musculus with 6 samples.

Results

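The mitosis and spindle genes are 46 genes whose products carry out cell division, among them mitotic kinases, kinetochore and spindle proteins, condensin and the cytokinesis machinery. They were followed in primary mouse microglia, the macrophages of the brain, with and without a functional Fosb gene. Each gene was represented by its probe set with a single gene symbol in the platform table. Where a gene had more than 1 such probe set, which was the case only for Top2a, that with the brightest mean signal was taken. All 46 were measured, out of 19938 genes with such a probe set.

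RNA was profiled on 6 Affymetrix whole-transcript arrays. There were 3 wild-type arrays, of microglia from C57BL/6J mice, and 3 fosB-null arrays, of microglia from mice homozygous for the null allele fosBG, which was backcrossed to C57BL/6J until generation N20. In both groups microglia came from the cerebral cortex of mice aged 2 days, were harvested from cultures kept for 10 days, and then plated again for 24 h without any added treatment that the labels name. Arrays carry the numbers 1 to 3 within a group and are labelled as biological replicates. They do not say how many animals or cultures an array stands for, so p-values measure the spread between these arrays only. Values are log2 signals, differences are fosB-null minus wild-type, and a difference of 1 is a change of 2-fold.

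Cells make most of these transcripts only from late S phase to mitosis. In resting cells a repressor complex called DREAM binds their promoters through a short element, the cell cycle genes homology region (CHR), and in dividing cells MYBL2 and FOXM1 replace it and switch the genes on, with the factor NF-Y bound at nearby CCAAT boxes. Cdk1 with cyclins A and B then drives entry into mitosis, the spindle checkpoint holds back separation until every chromosome is attached, and the anaphase-promoting complex (APC/C) ends mitosis by marking cyclins and securin for destruction. Levels of these transcripts are a common readout of how many cells of a culture divide. In such bulk samples more dividing cells and more of the RNA per dividing cell cannot be told apart.

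The promoters of the members were examined for the letters of these elements, as a description of the list. RefSeq promoter windows of GRCm38.p6, which hold the 250 bases before and the 50 bases after a gene's start, were found for 38 of the 46 members, in 40 windows. No window was matched for Aurkb, Ccna2, Dlgap5, Kif20a, Pbk, Ska1, Smc4 or Tpx2. The 5 sequences shown belong to members with the lowest unadjusted p among those described in full that hold both elements. They encode cyclin B2, the checkpoint kinases TTK and BUB1, the kinesin KIF23 of the cytokinetic midzone, and ECT2, which activates RhoA for cleavage. The windows are chr9:70421505-70421804 on the minus strand for Ccnb2, chr9:83834439-83834738 on the plus strand for Ttk, chr2:127831810-127832109 on the minus strand for Bub1, chr9:61946750-61947049 on the minus strand for Kif23 and chr3:27153829-27154128 on the minus strand for Ect2. Each is written 5′ to 3′ in the direction of the gene. Capitals mark CCAAT on either strand anywhere in the window, and TTTGAA or TTCGAA on either strand within 60 bases of the start.
Ccnb2: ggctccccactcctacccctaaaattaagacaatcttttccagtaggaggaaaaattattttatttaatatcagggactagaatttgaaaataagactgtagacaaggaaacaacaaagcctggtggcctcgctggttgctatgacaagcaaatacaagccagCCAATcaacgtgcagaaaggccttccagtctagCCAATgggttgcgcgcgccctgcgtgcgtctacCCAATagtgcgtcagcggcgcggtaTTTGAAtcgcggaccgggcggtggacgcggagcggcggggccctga
Ttk: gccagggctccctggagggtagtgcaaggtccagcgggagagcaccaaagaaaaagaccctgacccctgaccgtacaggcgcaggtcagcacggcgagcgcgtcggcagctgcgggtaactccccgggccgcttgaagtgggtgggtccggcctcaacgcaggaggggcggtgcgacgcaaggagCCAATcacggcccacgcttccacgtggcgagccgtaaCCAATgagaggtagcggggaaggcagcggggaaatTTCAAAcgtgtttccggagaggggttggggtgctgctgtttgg
Bub1: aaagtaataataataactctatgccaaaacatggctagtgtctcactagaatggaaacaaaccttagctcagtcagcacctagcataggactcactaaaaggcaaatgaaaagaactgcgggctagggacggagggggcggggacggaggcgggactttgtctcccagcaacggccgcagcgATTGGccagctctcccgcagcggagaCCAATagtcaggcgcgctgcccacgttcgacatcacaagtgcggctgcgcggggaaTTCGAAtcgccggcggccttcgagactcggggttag
Kif23: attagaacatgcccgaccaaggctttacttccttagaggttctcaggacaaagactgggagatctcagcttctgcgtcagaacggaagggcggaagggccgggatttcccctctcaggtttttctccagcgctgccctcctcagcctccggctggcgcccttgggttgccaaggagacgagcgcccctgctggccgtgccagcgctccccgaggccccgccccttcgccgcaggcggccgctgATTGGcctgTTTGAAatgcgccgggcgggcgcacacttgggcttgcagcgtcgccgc
Ect2: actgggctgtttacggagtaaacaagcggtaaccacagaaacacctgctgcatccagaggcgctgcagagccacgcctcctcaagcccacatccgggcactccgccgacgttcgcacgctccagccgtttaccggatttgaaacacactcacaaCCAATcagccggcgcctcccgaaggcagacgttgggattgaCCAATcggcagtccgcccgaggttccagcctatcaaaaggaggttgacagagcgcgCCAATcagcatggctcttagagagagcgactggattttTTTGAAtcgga

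In the Ccnb2 window the 3 CCAAT matches lay 87, 54 and 21 bases before the start, 33 bases apart, and the CHR letters 4 bases after it. Distances count from the first of the 50 bases after the start to the first letter of a match. In Ttk the CCAAT matches lay 65 and 28 bases before the start and the CHR letters 7 bases after it. In Bub1 they lay 68 and 42 bases before and 14 bases after, and in Kif23 1 CCAAT match 7 bases before and the CHR letters 2 bases after. Ect2 had its CHR letters 39 bases after the start and a CCAAT match 1 base after it, besides those 96 and 55 bases before.

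Over all 40 member windows, TTTGAA or TTCGAA on either strand within 60 bases of the start was found in 29, or 72.5%, against 4.85% of the 21263 windows of protein-coding genes. CCAAT on either strand was found in 75% of member windows against 38.2%, and at 2 or more places in 50% against 12.8%. E2F-type letters, which are TTTGGCG or TTTGCCG or TTTCGCG or TTTCCCG on either strand, were found in 22.5% of member windows against 8.04%. Matches of different motifs can share bases at their ends, and a match is only a match of letters. These shares describe the chosen list of mitotic genes and say nothing of the differences between arrays. Among the 38 genes with a window, the 27 with CHR letters near the start had a median difference of 0.54 between the groups and the 11 without them one of 0.47, values given without a test. Birc5, Cenpe, Melk, Mki67, Nusap1 and Mad2l1 were among those without a match in this stretch. For E2F-type letters the order was the reverse, also without a test. The 9 genes with them had a median difference of 0.44 and the 29 without them one of 0.54.

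**Figure D1:**
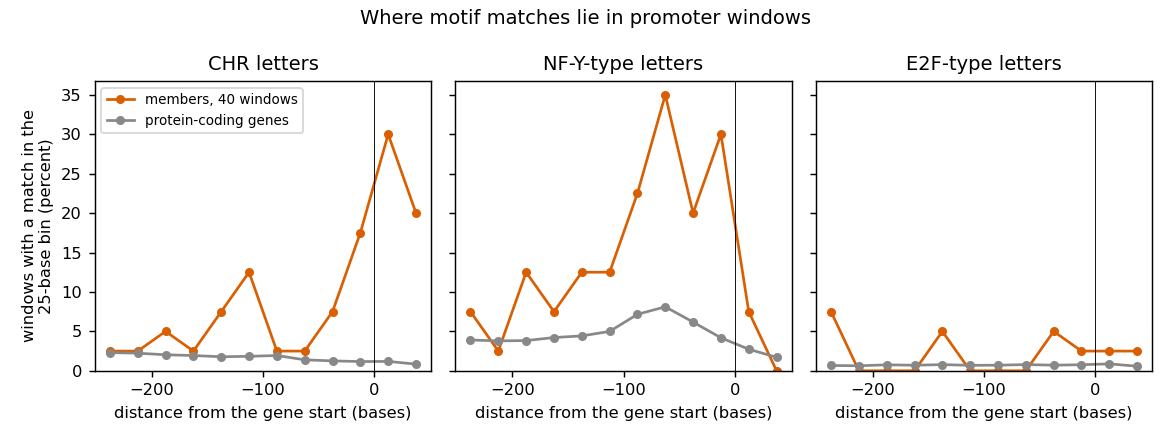
Percent of promoter windows (y axis) with a motif match in each 25-base bin, against distance from the gene start in bases (x axis), for the 40 windows of members (orange) and the windows of protein-coding genes (grey). The CHR letters (left) were found in 30% of member windows in the bin just after the start and the NF-Y-type CCAAT letters (middle) in 35% in the bin from -75 to -50.

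All 46 members had a higher mean in fosB-null than in wild-type arrays, with a median difference of 0.51, or 1.42-fold. Of the 23410 tested probe sets 30.9% had a higher mean in fosB-null arrays, and their median difference was 0. None of the 46 passed the limma test at an adjusted p of 0.05, where the background over all tested probe sets was 0.00427%, and each had an adjusted p of 1. An unadjusted p under 0.05 in that fit was reached by 9 members, all with higher signals in fosB-null arrays, against a background of 0.722% in either direction and 0.269% in that direction. In 44 of 46 members the range over the 3 wild-type arrays exceeded the difference between the group means.

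The difference varied with the replicate number. In replicate 1 all 46 members were higher in the fosB-null array than in the wild-type array of the same number, with a median difference of 0.69, or 1.61-fold, and a range of 0.04 to 1.41. In replicate 2 all 46 were higher too, with a median of 0.85, and a range of 0.11 to 1.44. In replicate 3 the median was 0, with a range of -0.21 to 0.21: 12 members were higher, 12 lower and 22 had exactly the same value in both arrays. Over all tested probe sets 17.9%, 23.4% and 12.6% were higher in the fosB-null array in replicates 1, 2 and 3, and 31.4% were lower in replicate 3.

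Exact ties between arrays of the same number were frequent in the whole table. They made up 62.3% of tested probe sets in replicate 1, 54.7% in replicate 2 and 56% in replicate 3. Of the members 0 were tied in replicate 1, 0 in replicate 2 and 22 in replicate 3. How such ties arose is not stated in the labels, and a tie is not a measurement that the arrays were equal. All 3 replicates were tied in 27.8% of tested probe sets and in 0 members. With all arrays kept, such a probe set has a difference of 0. It cannot have a higher mean, separate groups, a low p or a fold difference. For some features a tie in fewer replicates is enough. Groups that share a value in any 1 replicate overlap, so only the 3520 of 23410 tested probe sets without ties could have separate groups. The 22 members tied in replicate 3 could not either. A probe set tied in replicate 1 or replicate 2 cannot reach a fold limit in both. Tied probe sets thus lower the background shares for these features, here and below. Those shares are not the shares among probe sets without ties, which were not computed. The part of ties in the result was not tested.

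**Figure D2:**
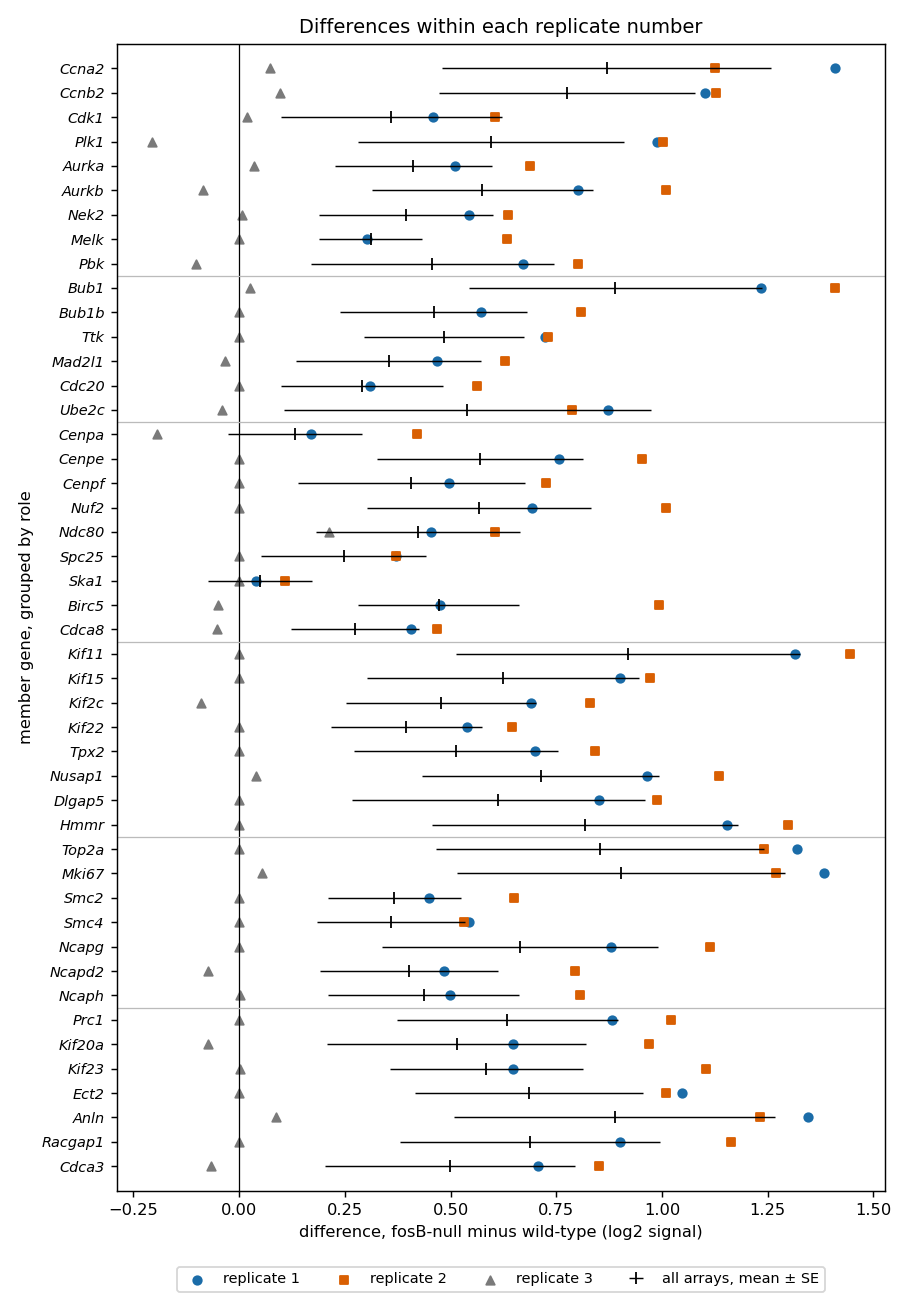
Difference in log2 signal, fosB-null minus wild-type (x axis), for each of the 46 members grouped by role (y axis), within replicate 1 (blue circles), replicate 2 (orange squares) and replicate 3 (grey triangles), with the mean over all arrays and its standard error (black). All members lie to the right of 0 in replicates 1 and 2, whereas replicate 3 spans -0.21 to 0.21.

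Read array by array, the members had their lowest signals in wild-type replicate 1 and their highest in fosB-null replicate 2. Wild-type replicate 1 was the lowest of all 6 arrays in 44 of 46 members, against 8.21% of tested probe sets, and fosB-null replicate 2 the highest in 45, against 15.7%. Ties limit both background shares. The 62.3% of tested probe sets tied in replicate 1 could not count for the former, nor the 54.7% tied in replicate 2 for the latter. No member was tied in either. The median over the members was 8.06, 8.59 and 8.84 in wild-type replicates 1, 2 and 3, and 8.73, 9.50 and 8.82 in fosB-null replicates 1, 2 and 3. Wild-type replicate 3 was the highest wild-type array in 41 of 46 members, against 25.2% of tested probe sets, and it was above fosB-null replicate 1 in 28 members, against 50.4%.

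**Figure D3:**
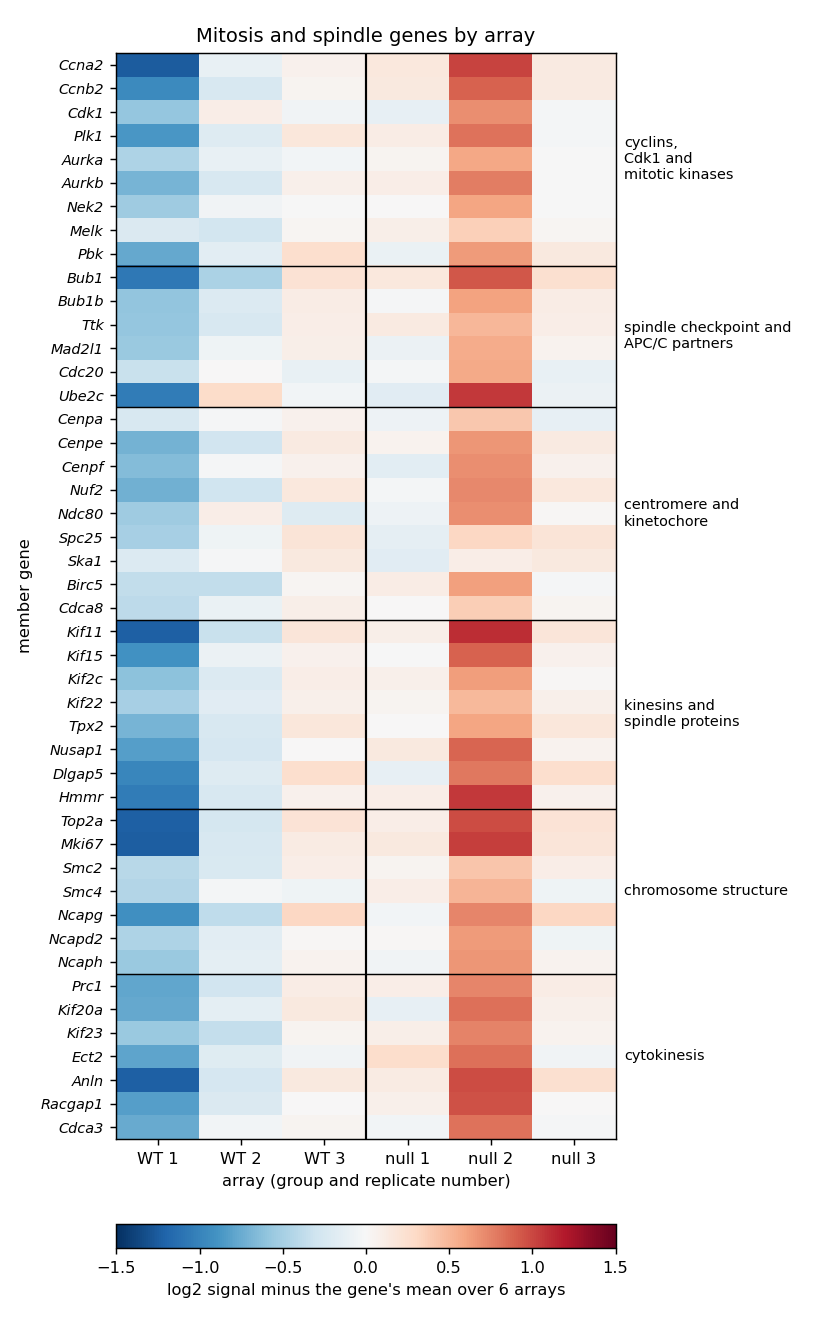
Log2 signal of each of the 46 members (rows, grouped by role) in the 6 arrays (columns), shown as the difference from the gene's own mean over all arrays (colour). The column of wild-type replicate 1 is the lowest in 44 members and that of fosB-null replicate 2 the highest in 45, while the other arrays lie between them.

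The groups did not overlap in 7 members, all higher in fosB-null arrays, against 0.41% of tested probe sets. They were Ccna2, Ccnb2, Aurka, Nek2, Nusap1, Mki67 and Kif23. A difference of at least 1.5-fold in both replicate 1 and replicate 2 was found in 27 of 46 members, against 0.295% of tested probe sets, and of at least 2-fold in both in 9, against 0.0427%. These fold limits were chosen after the values were seen. No member reached 1.5-fold in replicate 3, against 0.0897% of tested probe sets. Across the 46 members the differences in replicates 1 and 2 ranked alike, with a Spearman coefficient of 0.89, given as a description because the points share their probe sets and genes are not independent replicates.

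**Figure D4:**
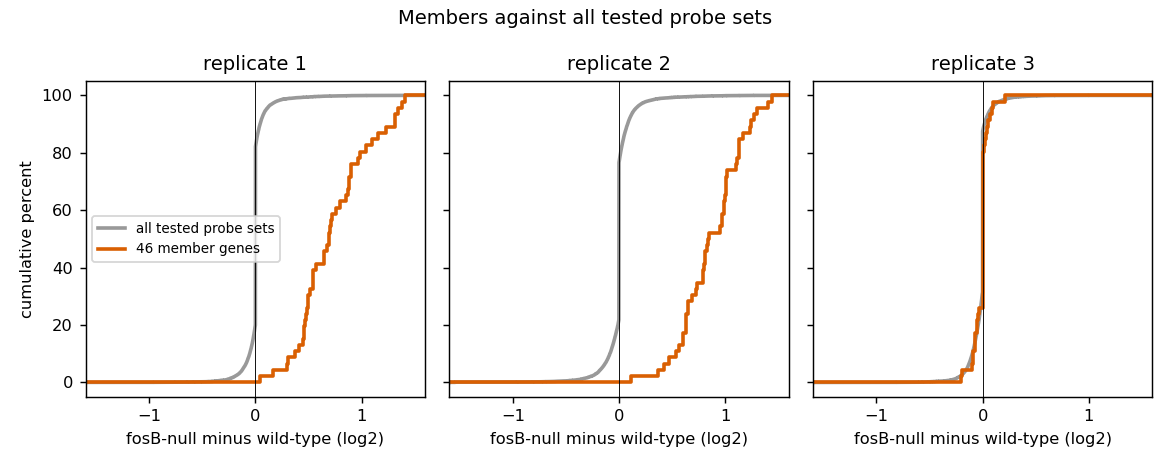
Cumulative percent (y axis) of the difference in log2 signal, fosB-null minus wild-type (x axis), for the 46 members (orange) and all tested probe sets (grey) in replicates 1, 2 and 3. The member curves have medians of 0.69 and 0.85 in replicates 1 and 2 and of 0 in replicate 3, where they run along the grey curve.

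Taking the replicate number into account changed the unadjusted counts of members but the call of none of the 46. Arrays of the same number deviated together from their group means, so the number was also fitted as a block. Over probe sets without ties the correlations of these deviations were lower, at 0.72, 0.33 and 0.32 in replicates 1, 2 and 3. The random block used a consensus correlation of 0.956 between arrays of the same number. Exact ties entered both block fits, and their part in the p-values was not tested. With the number as a fixed block 1 member, Ndc80, had an unadjusted limma p under 0.05 (background 2.31%, or 0.555% for higher signals), and the lowest adjusted p among members was 0.674. With the number as a random block 44 members had an unadjusted p under 0.05, against 9.63% of tested probe sets and 3.34% for higher signals. That limma fit gave adjusted p-values from 0.144 to 0.819, and 0 members passed, against a background of 0.201%, or 0.0555% for higher signals.

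The size of the difference varied with the arrays that were kept. Without wild-type replicate 1 the members' median difference was 0.29 and without fosB-null replicate 2 it was 0.28, and in each case 0 members had an unadjusted limma p under 0.05, against 0.44% and 0.577% of tested probe sets. Without wild-type replicate 3 the median was 0.67 and 29 members did, against 1.54% of tested probe sets. Without fosB-null replicate 1 it was 0.64 and 19 did, against 0.79%, and without wild-type replicate 2 it was 0.56 and 1 did, against 0.47%. With both arrays of replicate 3 left out the median was 0.78, and with both arrays of replicate 2 left out it was 0.33. No member was called in any of these fits.

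By role, the 9 members with an unadjusted limma p under 0.05 were 2 kinases and cyclins, 2 checkpoint genes, 1 kinetochore gene, 1 spindle gene and 3 cytokinesis genes, and 0 of chromosome structure. Among cyclins, Cdk1 and mitotic kinases all 9 members had a higher mean in fosB-null arrays, with a median difference of 0.46 and 0 called. Ccnb2 encodes cyclin B2, an activator of Cdk1. Its log2 signal was 9.07, 9.78 and 10.06 in wild-type replicates 1, 2 and 3 and 10.17, 10.91 and 10.16 in the fosB-null arrays of the same numbers. The fosB-null arrays were all above the wild-type arrays, with wild-type replicate 3 close to the lowest of them. The means were 9.64 ± 0.51 and 10.41 ± 0.43 (SD, n = 3 each), 0.78 apart (SE 0.30; limma, unadjusted p = 0.0378, adjusted p = 1). Cdk1, the kinase itself, read 9.81, 10.49 and 10.34 in wild-type and 10.27, 11.10 and 10.36 in fosB-null arrays. Its difference of 0.36 (SE 0.26) came from groups that overlapped, and replicate 3 contributed 0.02.

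Melk, a kinase whose transcript peaks in dividing cells, read 7.99, 7.93 and 8.24 in wild-type and 8.29, 8.56 and 8.24 in fosB-null arrays, a difference of 0.31 (SE 0.12). It was 1 of 2 members, with Birc5, whose lowest array was wild-type replicate 2. Plk1, the Polo-like kinase that drives centrosome maturation and mitotic exit, read 8.60, 9.28 and 9.65 in wild-type and 9.59, 10.29 and 9.44 in fosB-null arrays. Its differences were 0.99, 1.00 and -0.21 in the 3 replicates, the last being the lowest of any member in replicate 3. Pbk, a mitotic kinase, read 7.40, 8.02 and 8.42 against 8.07, 8.82 and 8.32, with 0.67, 0.80 and -0.10 by replicate. The remaining members of this group were Ccna2 (cyclin A2) with a difference of 0.87, Aurkb of the chromosomal passenger complex with 0.57, the centrosomal kinase Aurka with 0.41 and Nek2, which separates centrosomes, with 0.40. The difference of Ccna2 in replicate 1 was 1.41, the largest of any member there, against 1.13 in replicate 2 and 0.07 in replicate 3.

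The 6 genes of the spindle checkpoint and of APC/C partners had a median difference of 0.47, with 0 called. Bub1, a checkpoint kinase that marks centromeres, read 8.09, 8.69 and 9.37 in wild-type and 9.32, 10.10 and 9.40 in fosB-null arrays. Wild-type replicate 3 lay among the fosB-null arrays, so the groups overlapped. The means of 8.72 ± 0.64 and 9.60 ± 0.43 (SD, n = 3 each) differed by 0.89 (SE 0.35; limma, unadjusted p = 0.0380, adjusted p = 1). Ttk, the kinase that starts checkpoint signalling at unattached kinetochores, read 6.76, 7.11 and 7.44 against 7.48, 7.84 and 7.44, a difference of 0.48 (SE 0.19) with an exact tie in replicate 3.

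Mad2l1, the inhibitor of the APC/C activator Cdc20, read 10.05, 10.54 and 10.70 in wild-type and 10.52, 11.17 and 10.66 in fosB-null arrays. Its difference was 0.35 (SE 0.22), with 0.47, 0.63 and -0.03 by replicate. The checkpoint protein gene Bub1b differed by 0.46, Cdc20 by 0.29 and Ube2c, the ubiquitin-conjugating enzyme of the APC/C, by 0.54. Ube2c had its highest wild-type value, 9.54, in replicate 2, against 9.22 in replicate 3, unlike most members.

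Centromere and kinetochore genes ranged from a difference of 0.05 to one of 0.57, with a median of 0.41 over 9 members and 0 called. Cenpe, a kinesin that moves chromosomes to the spindle equator, read 7.59, 8.01 and 8.43 in wild-type and 8.35, 8.96 and 8.43 in fosB-null arrays. Its difference was 0.57 (SE 0.24), with the same value in both arrays of replicate 3. Birc5, which encodes survivin of the chromosomal passenger complex, read 7.76, 7.75 and 8.15 against 8.23, 8.74 and 8.11. It differed by 0.47 (SE 0.19; limma, unadjusted p = 0.0430, adjusted p = 1), and by 0.47, 0.99 and -0.05 in the 3 replicates.

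Cenpa, the histone H3 variant that defines centromeres, showed little separation. It read 9.60, 9.82 and 9.91 in wild-type and 9.77, 10.24 and 9.72 in fosB-null arrays, a difference of 0.13 (SE 0.16), and was 0.19 lower on the log2 scale in the fosB-null array of replicate 3. Its mean difference turned to -0.04 without fosB-null replicate 2. Ska1, which couples kinetochores to microtubule ends, read 6.13, 6.32 and 6.49 against 6.17, 6.43 and 6.49, a difference of 0.05 (SE 0.12), and turned to -0.04 without wild-type replicate 1. Its highest array was replicate 3 in each group, and it was the only member whose highest value was not in fosB-null replicate 2.

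The NDC80 complex, which holds microtubules at the kinetochore, is represented by Ndc80, Nuf2 and Spc25. Ndc80 read 7.39, 8.02 and 7.73 in wild-type and 7.84, 8.62 and 7.94 in fosB-null arrays. With 0.45, 0.61 and 0.21 by replicate it was the only member to differ by more than 0.10 in replicate 3 in the direction of the other replicates. Its difference of 0.42 had a standard error of 0.24 without the block and 0.11 with it. Spc25 read 7.88, 8.32 and 8.57 against 8.25, 8.69 and 8.57, a difference of 0.25 (SE 0.19), and Nuf2 differed by 0.57. Cenpf, of the outer kinetochore, differed by 0.41 and the passenger complex gene Cdca8, which encodes borealin, by 0.27.

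Kinesins and spindle proteins had a median difference of 0.62 over 8 members, with 0 called, and 7 of the 8 differed by at least 1.5-fold in both replicates 1 and 2. Nusap1, which bundles microtubules around chromosomes, read 8.42, 8.98 and 9.25 in wild-type and 9.38, 10.12 and 9.29 in fosB-null arrays. The groups did not overlap, with replicate 3 of each group nearly level, and the means of 8.88 ± 0.42 and 9.60 ± 0.45 (SD, n = 3 each) differed by 0.71 (SE 0.28; limma, unadjusted p = 0.0393, adjusted p = 1). Hmmr, a spindle-pole protein, read 6.44, 7.26 and 7.56 against 7.60, 8.55 and 7.56, a difference of 0.82 (SE 0.36).

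Kif11, the motor that pushes spindle poles apart, had the largest mean difference of all members at 0.92 (SE 0.41), with 1.31 in replicate 1, 1.44 in replicate 2 and an exact tie in replicate 3. In linear terms that was 2.49-fold and 2.72-fold in replicates 1 and 2. The spindle motor Kif15 differed by 0.62, the microtubule depolymerase Kif2c by 0.48 and the chromosome-arm kinesin Kif22 by 0.40. Tpx2, which activates Aurora A at the spindle, differed by 0.51 and the spindle protein gene Dlgap5 by 0.61.

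Genes of chromosome structure had a median difference of 0.44, with a range of 0.36 to 0.90. Mki67 encodes the Ki-67 protein that coats mitotic chromosomes and is the usual stain for dividing cells. It read 8.90, 9.90 and 10.26 in wild-type and 10.28, 11.17 and 10.32 in fosB-null arrays, so the groups did not overlap although wild-type replicate 3 lay close below fosB-null replicates 1 and 3. The means of 9.69 ± 0.71 and 10.59 ± 0.50 (SD, n = 3 each) differed by 0.90 (SE 0.39; limma, unadjusted p = 0.0537, adjusted p = 1). Top2a, which untangles sister chromatids, differed by 0.85, with 1.32, 1.24 and a tie by replicate.

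Condensin compacts chromosomes in mitosis, and its core ATPase genes showed smaller differences. Smc2 read 9.08, 9.26 and 9.59 in wild-type and 9.53, 9.91 and 9.59 in fosB-null arrays, a difference of 0.37 (SE 0.16), and its partner Smc4 differed by 0.36. The condensin I subunits Ncapg, Ncaph and Ncapd2 differed by 0.66, 0.44 and 0.40. All 7 genes of this group had a higher mean in fosB-null arrays and 0 were called.

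Cytokinesis genes had the largest median difference of the 6 role groups, 0.63 over 7 members, and all 7 differed by at least 1.5-fold in both replicates 1 and 2, but 0 were called. Kif23, of the centralspindlin complex, read 8.81, 9.01 and 9.42 in wild-type and 9.46, 10.11 and 9.42 in fosB-null arrays. Its groups were separated only by a difference of 0.00111 in replicate 3, and its mean difference was 0.58 (SE 0.23; limma, unadjusted p = 0.0381, adjusted p = 1). Ect2 read 8.55, 9.15 and 9.28 against 9.59, 10.16 and 9.28, a difference of 0.69 (SE 0.27), with an exact tie in replicate 3.

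Anln, which encodes the contractile-ring scaffold anillin, read 7.37, 8.34 and 8.74 in wild-type and 8.71, 9.57 and 8.83 in fosB-null arrays, a difference of 0.89 (SE 0.38). Racgap1, the centralspindlin partner of Kif23, differed by 0.69, and the midzone genes Prc1 and Kif20a by 0.63 and 0.51. Cdca3, a trigger of mitotic entry, differed by 0.50. In replicate 3 these genes ranged from -0.07 for Kif20a to 0.09 for Anln.

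Other genes of the mitotic programme, from a list that holds none of the 46, also had mostly higher means in fosB-null arrays. This list and those below were chosen with earlier results of these data known, so their counts are not independent support. For all of them the share of tested probe sets with a higher mean was 30.9%. Of 63 measured genes 60 had a higher mean in fosB-null arrays, 2 a lower mean and 1 no difference, with a median of 0.32, or 0.40, 0.59 and 0 in replicates 1, 2 and 3. By the limma test 0 were called, and 9 higher and 1 lower gene had an unadjusted p under 0.05, against 0.722% of tested probe sets in either direction and 0.269% for higher signals. When the array number was fitted as a random block, 1 was called, Pttg1, which encodes securin and was lower in fosB-null arrays (limma, adjusted p = 0.0121). Sgo2a, a guardian of centromeric cohesin, differed by 0.46 (SE 0.12; limma, unadjusted p = 0.00716, adjusted p = 1), and by 0.57, 0.66 and 0.14 in the replicates. Cenpk, of the inner kinetochore, differed by 0.42, with 0.17 in replicate 3, and the spindle gene Ckap2l by 0.46.

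Regulators of mitotic transcription differed less as a list, with a few exceptions. Of 22 measured genes 16 had a higher mean in fosB-null arrays, 5 a lower mean and 1 no difference, with a median of 0.02 and 0 called. Foxm1, the activator of late cell cycle genes, read 8.14, 8.65 and 9.11 in wild-type and 8.95, 9.72 and 9.05 in fosB-null arrays, a difference of 0.61 (SE 0.29). The repressors E2f8 and E2f7 of the E2F family differed by 0.59 and 0.36. Lin9 and Lin54, subunits of the MuvB core that binds CHR elements, differed by 0.03 and 0.01, and Mybl2 by 0.24.

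The list of APC/C genes and that of condensin II and cohesin genes had median differences near 0. The list of 15 APC/C genes, among them the activator Fzr1, had a median difference of -0.002. Of these 5 were higher, 8 lower, 2 tied in all replicates and 0 called. The 3 genes with the lowest p, the subunits Anapc13, Anapc15 and Anapc16, differed by -0.05, 0.06 and -0.07. Condensin II and cohesin genes had a median of 0.04 over 12 members, with 11 higher, 1 tied in all replicates and 0 called. Within them Ncapd3 and Ncapg2, both of condensin II, differed by 0.15 and 0.22 and the cohesin partner Pds5a by 0.05.

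**Figure D5:**
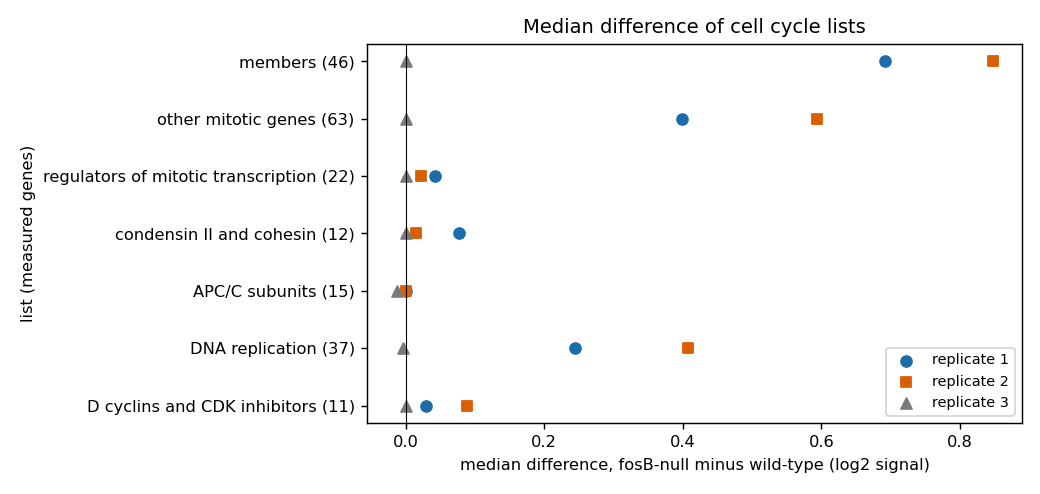
Median difference in log2 signal, fosB-null minus wild-type (x axis), of the 46 members and 6 other cell cycle lists (y axis, number of measured genes in brackets) in replicates 1, 2 and 3. The medians of the members, the other mitotic genes and the DNA replication genes lie between 0.24 and 0.85 in replicates 1 and 2 and at or near 0 in replicate 3.

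Earlier stages of the cycle were represented by DNA replication genes and by D cyclins with CDK inhibitors. Of 37 measured replication genes 36 had a higher mean in fosB-null arrays, with a median of 0.23, or 0.24, 0.41 and -0.00347 by replicate, and 0 called. Rrm2, a subunit of ribonucleotide reductase, differed by 0.72, the S-phase cyclin Ccne1 by 0.48 and the polymerase gene Pole by 0.56. The 11 measured D cyclins, their kinases and CDK inhibitors had a median of 0.03. Of these 8 were higher, 1 lower, 2 tied in all replicates and 0 called. Cdkn2c, an inhibitor of Cdk4 and Cdk6, differed by 0.29, Ccnd1 by 0.21 and Cdk6 by 0.11. In the lists of regulators, APC/C, condensin II and cohesin, replication, and D cyclins and inhibitors, 0 genes had an unadjusted limma p under 0.05 either. The share over all tested probe sets was 0.722%, so a count of 0 in lists of this size says little.

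The positions of the members relative to the altered locus are given as a description. Fosb is on chromosome 7, and 0 of the 46 members were among the 200 measured genes nearest to it, 100 on each side. These are a small part of the 19938 genes with a single-symbol probe set, so a count of 0 among 46 says little. An effect of position was not tested. The 4 members on that chromosome, Prc1, Plk1, Kif22 and Mki67, lay 620, 1161, 1221 and 1336 measured genes away in RefSeq order.

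Markers of the cultured cells were set beside the members. Microglial markers had a mean log2 signal of 11.56 to 11.78 in wild-type and 11.66 to 11.76 in fosB-null arrays over 14 matched genes, and 0 were called. The dimmest of them were P2ry12, Gpr34, Tmem119 and Aif1, with means over all arrays of 8.82, 8.83, 9.02 and 9.59. The means of other lists, in wild-type and fosB-null arrays respectively, were 7.31 to 7.42 and 7.31 to 7.42 for 11 astrocyte genes and 8.11 to 8.34 and 8.10 to 8.26 for 10 oligodendrocyte-lineage genes. They were 7.29 to 7.41 and 7.33 to 7.41 for 12 genes of neurons and neural progenitors and 7.27 to 7.45 and 7.35 to 7.54 for 10 genes of fibroblasts and mural cells. For 8 endothelial genes they were 7.78 to 7.93 and 7.78 to 7.95, and for 8 blood leukocyte genes 6.63 to 6.78 and 6.67 to 6.79. Of the 59 genes in these 6 lists 0 were called, and 0 markers of any list had an unadjusted limma p under 0.05. With 0.722% of all tested probe sets under that limit, a count of 0 among so few markers says little. All 3 replicates were tied in 10 of the 11 astrocyte markers, against 27.8% of tested probe sets. So were 4 oligodendrocyte-lineage, 2 neuronal or progenitor, 4 fibroblast or mural and 2 endothelial markers. A gene tied in this way has a difference of 0 and could not be called, so these counts of 0 say nothing about it. The median signal of tested probe sets lay between 7.99 and 8.15 on the 6 arrays. Postn, a marker on the list of fibroblasts and mural cells, was the 1 marker at least 1.5-fold higher in both replicate 1 and replicate 2. Its differences were 0.69, 0.67 and -0.57 in replicates 1, 2 and 3. Nes, a progenitor gene, read 9.38, 9.84 and 9.92 in wild-type and 9.82, 10.19 and 9.78 in fosB-null arrays. In its list 4 genes had a higher mean in fosB-null arrays, 6 a lower mean and 2 no difference. Cnp, Flt1 and Mbp were also brighter than their lists, with means over all arrays of 10.50, 10.43 and 9.79. These signals have no true zero, so the absence of a cell type cannot be read from them, and the part of other cells in the members' differences was not tested.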

How the data were processed

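Total RNA, 100 ng for each of 6 samples, was labelled and hybridised per the labels' protocols. The deposited values are log2 signals, 1 for each of 35557 probe sets and array, and per the submitters' processing notes the authors used Affymetrix Expression Console. That the scale is log2 follows from the range of the values. The software version, the summary method and the normalization were not stated in the labels. Platform symbols (annotation table of the array) were updated through gene numbers in RefSeq GRCm38.p6.

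The comparison of groups used limma 3.58.1 (R 4.3.3; lmFit, eBayes, two-sided), without block or filter, on the 23410 probe sets with at least 1 symbol, adjusted by Benjamini-Hochberg; the threshold was 0.05. The fit was tested on simulated data. Lists are described by counts and medians and were not tested. The members and lists were chosen with earlier results of these data known. Members described in full were, per role group, the 2 with the lowest p and the 1 with the highest mean, and over all members the 3 with the smallest difference and the 3 at either end in replicate 3; other members are given by their difference. From each other pathway or cell cycle list the 3 genes with the lowest p are named. Lin9, Lin54, Mybl2, Fzr1, Pttg1 and the markers Postn, Nes, Cnp, Flt1, Mbp, P2ry12, Gpr34, Tmem119 and Aif1 were added after their values were seen.

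Same-numbered arrays were taken as pairs in the block fits. Their deviations from the group means correlated at 0.91, 0.82 and 0.82 in replicates 1, 2 and 3, where exact ties are included. Over the 3520 tested probe sets without ties they correlated at 0.72, 0.33 and 0.32. The pairing was read from the values, since the meaning of a number is not labelled. Tried as alternatives were array weights, robust eBayes, an intensity trend, median centring, quantile normalization, removal of the dimmest 40%, a wider or narrower choice of probe sets, a fixed or random block, leaving out arrays, the mean over a gene's probe sets and other thresholds. The number of arrays limits the precision.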

Additional observations from a re-analysis of the deposited data

How the results depend on the processing

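No member was called in any of 20 alternative fits, the lowest adjusted p by limma being 0.144 with the random replicate block, nor at an adjusted p under 0.10; an unadjusted p under 0.05 was met by 9 members and by 169 of all tested probe sets. Over all tested probe sets 1 was called by the main design, 0 with the fixed replicate block and 47 with the random one. With single arrays or both arrays of a number left out that count ranged from 0 to 2, the 2 being without wild-type replicate 3, and the members' median difference from 0.28 to 0.78. The median was 0.49 with quantile normalization, 0.48 with median centring, 0.55 with array weights and 0.49 with the mean over a gene's probe sets, and the median of replicate 3 was 0.00 and -0.01 under quantile normalization and median centring. The count of members with an unadjusted p under 0.05 was 15 with median centring, 17 of 43 without the dimmest 40% and 24 with array weights, against 1.03%, 1.5% and 1.38% of the probe sets tested under each. Of 917 member values under alternatives 4 fell below 0, all for Cenpa or Ska1 when arrays were left out. With the random replicate block 1 gene of the other lists, Pttg1, was called. Neither block changed the call of a member or of another listed gene. The causes were not tested.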

Other observations

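The genes most clearly higher in both replicates 1 and 2 came largely from the cell cycle lists. A difference of at least 1.5-fold higher in both was found in 67 of 19938 genes, and of at least 1.5-fold lower in both in 17, among them the complement receptor genes C5ar1 and C5ar2, the interferon-induced genes Ifit1 and Ifit3 and the nuclear receptor gene Nr4a1. Of the 67, 27 were members, 15 other mitotic genes, 4 DNA replication genes and 2 regulators of mitotic transcription, and 1 was the matrix gene Postn, from the marker list of fibroblasts and mural cells. The other 18 were on no list used here. Among them Esco2, an acetyltransferase that establishes sister chromatid cohesion, differed by 1.02, 1.16 and 0.01 in replicates 1, 2 and 3, the DNA glycosylase Neil3 by 0.99, 1.17 and 0.00, the PCNA partner Pclaf by 0.90, 0.99 and 0.11, and the centriole gene Stil by 0.97, 0.88 and 0.05. Cd34, which encodes a surface sialomucin, differed by 0.77, 0.68 and 0.33. In replicate 3, 19 of the 67 were higher, 20 lower and 28 tied, and 0 reached 1.5-fold there. The 67 genes were picked with their values in view and are given without a test. The lists were chosen with earlier results of these data known. How many of the 67 fall on them is therefore not independent support.

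Pttg1, which encodes securin, the inhibitor of sister chromatid separation, went the other way from the mitotic genes around it. It was lower in the fosB-null array of every replicate, with differences of -0.21, -0.20 and -0.19, a mean of -0.20 (SE 0.08; limma, unadjusted p = 0.0347, adjusted p = 1). Its adjusted p by limma was 0.0121 when the number was fitted as a random block and 0.539 when fitted as a fixed block. It was singled out after its values were seen, and it was the only gene of the list of other mitotic genes with an unadjusted p under 0.05 and a lower signal.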
